A study of Mus musculus with 24 samples.

Results

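The expression of 41 genes known as markers of the subfields of the hippocampus and of the regions that border it was followed in the dorsal hippocampus of wild-type (WT) and CBP KIX/KIX mice, out of 51826 gene identifiers in the count table. The genes were given as a fixed list that holds 13 markers assigned here to the dentate gyrus, 7 to CA3, 4 to CA2, 5 to CA1 and 12 to the subiculum and the bordering cortex. Some of them were chosen by their measured difference between the genotypes in homecage mice, and the list does not say which. The homecage difference between genotypes, and the comparisons that share its libraries, are therefore given as values without a test. All 41 genes were found by symbol, all had counts in each of the 24 libraries, and all passed the filter on low counts in every comparison. CBP KIX/KIX mice carry 3 amino acid changes in the part of CBP named KIX, made by point mutations of *Crebbp* in the germline and thus present in every cell. By the labels and the series' design text, all mice of these libraries were males of 2 to 4 months on a C57BL/6J background. In RNA-Seq 1 there were 3 WT homecage mice and, 1 h after 3 days of training in the Morris water maze (MWM), 3 WT and 3 CBP KIX/KIX mice, sequenced from total RNA after removal of ribosomal RNA. In RNA-Seq 2 there were 3 WT homecage mice, 4 CBP KIX/KIX homecage mice and, 1 h after contextual fear conditioning (CFC), 4 WT and 4 CBP KIX/KIX mice, sequenced from polyA-selected RNA. RNA-Seq 1 has no CBP KIX/KIX homecage group, and the experiments differ at once in task, library type and sequencing run, whose effects cannot be told apart.

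The hippocampus passes information along a chain of subfields with distinct principal neurons. Granule cells of the dentate gyrus project through mossy fibres to CA3 pyramidal neurons, CA3 neurons project to CA1, the small CA2 field lies between them, and CA1 projects to the subiculum, from which signals leave for the cortex. Each neuron type keeps its own set of transcription factors, adhesion molecules and calcium-handling proteins, and genes of such sets serve as markers of position. *Prox1*, for example, is the homeobox factor that fixes granule cell identity, *Rgs14* and *Amigo2* mark CA2, and *Wfs1* and *Fibcd1* mark CA1 pyramidal neurons. Many markers are not exclusive: *Calb1* is also made by superficial CA1 neurons and some interneurons, and *Pcp4* by granule cells as well as CA2 neurons. The KIX domain is the site at which CBP binds phosphorylated CREB, an activator that recognises the cAMP response element in promoters. In pieces of tissue measured in bulk, fewer cells of a type and less RNA per cell cannot be told apart, and the amount of each subfield or border region in a dissected piece enters every level reported.

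The libraries held 38174044 to 65709282 counts in RNA-Seq 1 and 15385836 to 46056290 in RNA-Seq 2, where replicates 1 and 2 were sequenced more deeply (30143949 to 46056290) than replicates 3 and 4 (15385836 to 20568337). A count of 3, taken as the smallest detectable amount, comes to at most 0.195 CPM, and the lowest value of a member was 0.228 CPM. Levels are CPM, counts relative to library size, after upper-quartile scaling. Counts per gene do not show point mutations, so *Crebbp* is no check of the genotype. It stood at 197 ± 29.7 CPM in WT and 183 ± 15.6 CPM in CBP KIX/KIX MWM libraries (SD, n = 3 each), and at 64.4 ± 4.12 CPM and 66.6 ± 3.85 CPM after CFC (SD, n = 4 each). Some libraries stood apart. CBP KIX/KIX CFC replicate 2 was the highest of the 15 RNA-Seq 2 libraries for 12 of the 41 members and the lowest for 7. CBP KIX/KIX homecage replicate 4 was the highest for 9 and the lowest for 10. Choroid plexus genes, which mark a tissue next to the hippocampus and not neurons, varied among mice of the same group: *Ttr*, their most abundant gene, lay between 3.26 and 3843 CPM in RNA-Seq 2.

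Compared per kb of exon in the 3 WT homecage mice of RNA-Seq 1, the members spanned a wide range of levels. *Fibcd1*, a receptor for acetylated sugars, was at 122 ± 45.6 CPM per kb (SD, n = 3), *Bok*, a member of the Bcl-2 family, at 102 ± 47.4, *Mpped1*, a metallophosphoesterase, at 99.3 ± 30.1 and *C1ql2*, a secreted C1q-like protein of mossy fibre synapses, at 90.3 ± 15.3. The SDs of these 4 neighbours overlapped, so their order is not resolved. *Dsc3*, a desmosomal cadherin, was the lowest at 0.125 ± 0.0929 CPM per kb, and *Map3k15*, a kinase, and *Tshz2*, a zinc finger homeobox factor, came next at 0.498 ± 0.299 and 0.542 ± 0.157. In the 3 WT homecage mice of RNA-Seq 2, *Mpped1* led at 56.6 ± 2.14 CPM per kb, beyond the spread of *C1ql2* at 39.8 ± 4.99 and *Wfs1*, an endoplasmic reticulum protein, at 37.7 ± 2.46. *Map3k15* at 0.636 ± 0.142 and *Dsc3* at 0.755 ± 0.105 closed the order there, within their spread of each other. In both experiments the dentate gyrus, CA3, CA2 and CA1 classes held abundant members, in CA2 *Rgs14* at 58.8 ± 12.6 and 23.1 ± 0.789 CPM per kb. In both, 9 members of several classes were below 3 CPM per kb: the border markers *Tshz2*, *Dsc3*, *Cplx3* and *Rxfp3*, the CA3 markers *Iyd*, *Coch* and *Nectin3*, the CA2 marker *Map3k15* and the dentate gyrus marker *Tdo2*.

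**Figure D1:**
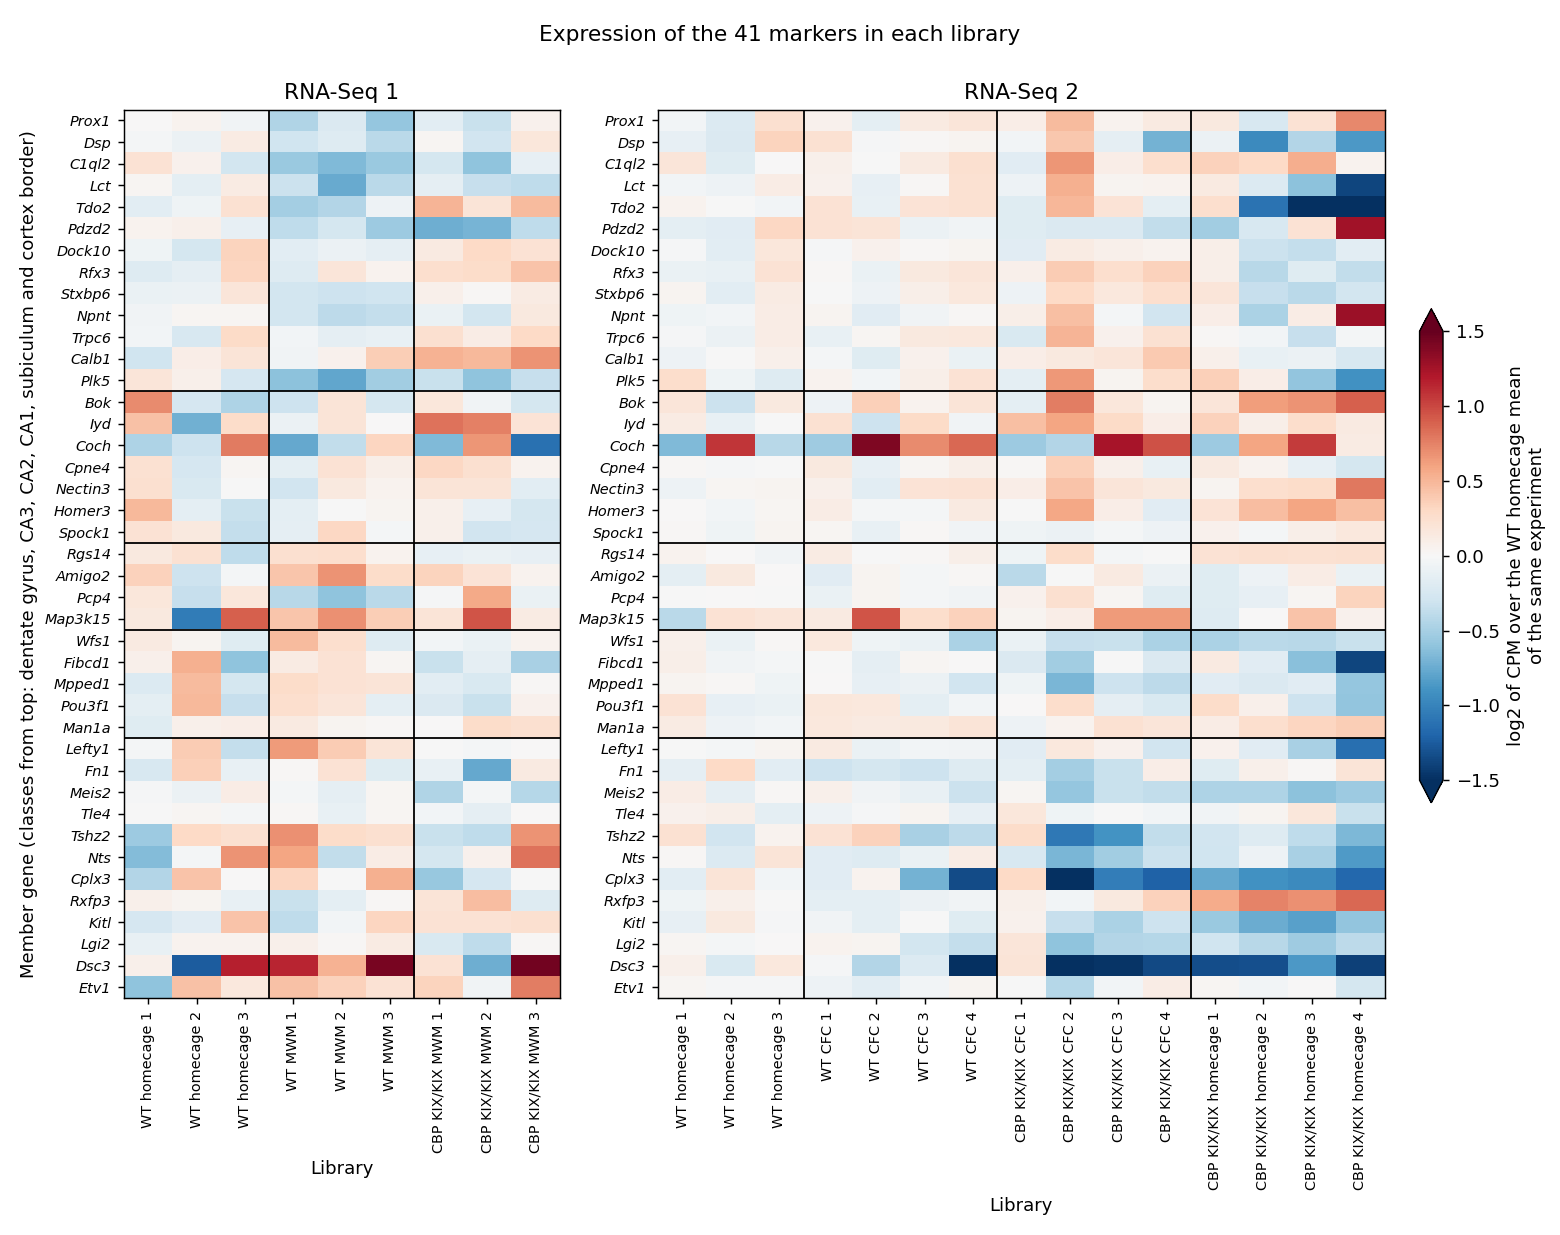
Level of each of the 41 members (rows, by class) in each of the 24 libraries (columns, by group), as log2 of CPM over the mean of the WT homecage libraries of the same experiment, with the colours capped at 1.5 in either direction. The dentate gyrus rows are mostly blue in the 3 WT MWM libraries, *Dsc3* and *Cplx3* are blue in the 4 CBP KIX/KIX homecage libraries, and CBP KIX/KIX homecage replicate 4 departs from its group in both directions.

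The members' promoter windows were searched for the cAMP response element, as the KIX domain is where CBP meets CREB. RefSeq promoter sequences (GRCm38.p6, 300 bases each, 250 before to 50 after a start site) were found for 34 of the 41 members in 41 windows. *Calb1*, *Dsc3*, *Fn1*, *Lefty1*, *Map3k15*, *Pou3f1* and *Rgs14* were not matched. The full element, TGACGTCA, which reads the same on both strands, was in 0 of these windows and in 1.79% of 32851 windows of all genes. Its half-site, TGACG or CGTCA on the other strand, which every full element also holds, was in 7 of the 41 windows (17.1%) and in 20.8% of all windows. The 7 windows belonged to *Cpne4*, *Fibcd1*, *Iyd*, *Man1a*, *Npnt*, *Nts* and *Trpc6*. *Fibcd1* and *Iyd* are shown, because they alone among these 7 passed the test of genotype after learning, one lower and the other higher, with the half-site in capitals, 5′ to 3′ on the gene's strand. The *Fibcd1* window is chr2:31845956-31846255 on the minus strand, and the *Iyd* window is chr10:3540024-3540323 on the plus strand.
Fibcd1: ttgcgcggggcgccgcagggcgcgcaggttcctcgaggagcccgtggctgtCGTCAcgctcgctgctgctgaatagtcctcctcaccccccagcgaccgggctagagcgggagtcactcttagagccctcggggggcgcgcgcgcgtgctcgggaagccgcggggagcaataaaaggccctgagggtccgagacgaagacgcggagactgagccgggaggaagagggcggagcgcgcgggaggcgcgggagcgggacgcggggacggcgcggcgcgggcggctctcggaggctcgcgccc
Iyd: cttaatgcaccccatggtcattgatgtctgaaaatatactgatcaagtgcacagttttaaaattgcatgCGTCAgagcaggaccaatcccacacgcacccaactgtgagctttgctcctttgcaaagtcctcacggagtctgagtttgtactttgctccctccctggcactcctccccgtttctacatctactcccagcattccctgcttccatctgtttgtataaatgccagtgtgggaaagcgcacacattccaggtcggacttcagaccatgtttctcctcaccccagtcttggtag

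After learning, the dentate gyrus markers *Calb1*, *Rfx3* and *Stxbp6*, the CA3 marker *Iyd* and the CA2 marker *Pcp4* were above WT levels in CBP KIX/KIX mice, and the dentate gyrus marker *Pdzd2*, the CA1 markers *Fibcd1* and *Mpped1* and the border markers *Meis2* and *Lgi2* were lower. Of the 41 members, these 10 passed the test over both experiments, 5 higher and 5 lower, which compares with 2.42% of all 21489 genes tested (0.982% higher and 1.44% lower, edgeR's quasi-likelihood test, a term for the experiment and 4 RUVr factors, which stand for variation that is not of the design, Benjamini-Hochberg adjusted p under 0.05). At an unadjusted p under 0.05 stood 29 members, beside 17.8% of all genes. The members were chosen with earlier results of these data known, which may raise their share above that of all genes. The call rests on those factors: with none, 0 members passed by the same edgeR test, 17 were at an unadjusted p under 0.05 beside 8.81% of all genes, and 4 genes in all passed (0.0186%). With 2 factors 1 member passed, *Calb1*, and DESeq2 with the 4 factors called 15. The factors were taken from what was left after the genotype was fitted. They could thus hardly move the log2 fold changes, whose stability is no separate evidence. They also took up part of the spread between mice of a group, so these p-values measure only the spread left and may be too small. For the 10 members the log2 fold changes were between −0.30 (*Fibcd1*) and 0.44 (*Iyd*) without factors and between −0.30 and 0.44 with them. Leaving out each of the 14 libraries in turn left 4 to 17 members called: 4 without CBP KIX/KIX MWM replicate 1, 5 without CBP KIX/KIX MWM replicate 2 or WT CFC replicate 1, 6 without CBP KIX/KIX CFC replicate 4 and 17 without CBP KIX/KIX MWM replicate 3. *Calb1*, *Rfx3* and *Mpped1* passed in all 14 of these fits, *Pcp4* in 13, *Fibcd1* in 12, *Stxbp6* and *Meis2* in 11, *Pdzd2* in 9, *Lgi2* in 6 and *Iyd* in 3. Of all genes called 59.4% were lower, and 84.4% with offsets for GC content, where 6 members passed (*Rfx3* and *Calb1* higher, *Fibcd1*, *Mpped1*, *Meis2* and *Lgi2* lower). Each log2 fold change sets CBP KIX/KIX against WT mice, and a mouse counts as higher or lower by the mean of the WT mice trained in the same task.

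Among the 13 dentate gyrus markers, 12 had a positive and 1 a negative log2 fold change after learning (median 0.19, beside −0.01 over all genes), and 3 rose and 1 fell past the threshold. *Calb1*, which encodes the calcium buffer calbindin, lies on chromosome 4, 15881264 to 15908064 (GRCm38, as all positions here). After the MWM, *Calb1* stood at 57.000, 61.8 and 76.5 CPM in the 3 WT and at 85.4, 83.2 and 94.4 CPM in the 3 CBP KIX/KIX libraries. After CFC it stood at 111, 99.4, 118 and 106 CPM in the 4 WT and 121, 125, 129 and 148 CPM in the 4 CBP KIX/KIX mice. Within each experiment all CBP KIX/KIX libraries were above all WT libraries. The log2 fold change was 0.35 (SE 0.0548, adjusted p = 0.00517), higher in 7 of 7 mice, and adjusted p = 0.0880 without factors. *Rfx3*, a transcription factor of ciliated cells (chromosome 19, 27761721 to 28011166), rose by 0.25 (SE 0.0400, adjusted p = 0.00474) in 7 of 7 mice. After the MWM, *Rfx3* stood at 70.6, 92.1 and 84.03 CPM in the 3 WT and at 96.7, 97.6 and 109 CPM in the 3 CBP KIX/KIX libraries. Its CFC levels were 72.6, 67.1, 79.8 and 81.2 CPM in the 4 WT and 75.9, 93.4, 85.3 and 91.5 CPM in the 4 CBP KIX/KIX mice. The groups did not overlap after the MWM and overlapped after CFC, and without factors its adjusted p = 0.227. *Stxbp6*, or amisyn, a SNARE-binding protein (chromosome 12, 44852484 to 45074709), rose by 0.23 (SE 0.0472, adjusted p = 0.0197) in 6 of 7 mice. After the MWM, *Stxbp6* stood at 44.3, 43.04 and 43.6 CPM in the 3 WT and at 56.5, 54.3 and 58.3 CPM in the 3 CBP KIX/KIX libraries. The CFC libraries lay at 106, 101, 113 and 119 CPM in the 4 WT and 101, 131, 119 and 126 CPM in the 4 CBP KIX/KIX mice. The MWM groups lay apart and the CFC groups overlapped, with adjusted p = 0.241 without factors. *Pdzd2*, a PDZ-domain protein (chromosome 15, 12359711 to 12739924), was the exception in the class and fell by 0.26 on the log2 scale (SE 0.0571, adjusted p = 0.0267), in 6 of 7 mice. After the MWM, *Pdzd2* stood at 87.3, 94.9 and 78.4 CPM in the 3 WT and at 68.8, 70.3 and 87.4 CPM in the 3 CBP KIX/KIX libraries. In CFC mice the level was 56.1, 55.1, 45.4 and 46.6 CPM in the 4 WT and 42.5, 41.6, 41.5 and 37.5 CPM in the 4 CBP KIX/KIX mice. Its CFC groups did not overlap and its MWM groups did, with adjusted p = 0.227 without factors.

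The other 9 dentate gyrus markers did not pass. *Prox1*, at 0.21 (SE 0.0527, adjusted p = 0.0502), was closest to the threshold, and *Tdo2*, which encodes tryptophan 2,3-dioxygenase, had the largest value at 0.30 (SE 0.14, adjusted p = 0.270). The remaining 7 lay between 0.06 (*Dsp*, encoding desmoplakin) and 0.21 (*Trpc6*, a cation channel), and included *C1ql2*, *Lct*, which encodes lactase, *Dock10*, a guanine nucleotide exchange factor, *Npnt*, which encodes the matrix protein nephronectin, and *Plk5*, a polo-like kinase.

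Of the 7 CA3 markers 5 were positive and 2 negative (median 0.07), and 1 rose. *Iyd*, which encodes iodotyrosine deiodinase (chromosome 10, 3540240 to 3554877), rose by 0.44 (SE 0.11, adjusted p = 0.0458) in 7 of 7 mice, from low levels. After the MWM, *Iyd* stood at 2.83, 3.43 and 3.02 CPM in the 3 WT and at 5.26, 5.06 and 3.45 CPM in the 3 CBP KIX/KIX libraries. After CFC it stood at 4.33, 2.98, 4.48 and 3.55 CPM in the 4 WT and 5.05, 5.55, 4.48 and 3.95 CPM in the 4 CBP KIX/KIX mice. The MWM groups only just failed to overlap and the CFC groups overlapped, and without factors its adjusted p = 0.295. *Cpne4*, a copine, and *Nectin3*, an adhesion molecule, were next by p but did not pass, at 0.10 (SE 0.0386, adjusted p = 0.189) and 0.13 (SE 0.0567, adjusted p = 0.260). After the MWM, *Cpne4* stood at 65.9, 84.9 and 77.9 CPM in the 3 WT and at 90.2, 86.1 and 75.8 CPM in the 3 CBP KIX/KIX libraries. Its CFC levels were 116, 96.5, 108 and 112 CPM in the 4 WT and 106, 134, 111 and 97.6 CPM in the 4 CBP KIX/KIX mice. *Nectin3* stood at 28.03, 37.9 and 35.3 CPM in WT and 39.05, 38.998 and 30.7 CPM in CBP KIX/KIX MWM libraries, and at 30.2, 25.8, 32.9 and 33.4 and 30.8, 38.6, 32.6 and 31.7 CPM in the CFC libraries. Both genes overlapped between genotypes in both experiments. *Bok*, *Homer3*, a postsynaptic scaffold, and *Spock1*, a proteoglycan, lay between −0.10 and 0.07. *Coch*, which encodes cochlin, was at −0.25 (SE 0.16, adjusted p = 0.458) and varied widely within groups, between 3.42 and 13.1 CPM in the 4 WT CFC mice. In those mice *Coch* stood at 3.42, 13.1, 8.10 and 9.02 CPM and *Ttr* at 11.2, 3843, 1562 and 1670.1 CPM, and in the CBP KIX/KIX CFC mice at 3.40, 3.66, 11.7 and 9.60 CPM and 18.8, 43.4, 3584 and 1944 CPM. Libraries low in *Ttr* were thus low in *Coch*, and the part of choroid plexus in the level of *Coch* was not tested.

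Among the 4 CA2 markers, *Pcp4*, which encodes a calmodulin-binding peptide (chromosome 16, 96467606 to 96525793), rose by 0.32 (SE 0.0627, adjusted p = 0.0154) in 6 of 7 mice. After the MWM, *Pcp4* stood at 8.39, 7.41 and 8.46 CPM in the 3 WT and at 11.1, 16.6 and 10.5 CPM in the 3 CBP KIX/KIX libraries. The CFC libraries lay at 18.9, 20.7, 19.7 and 19.5 CPM in the 4 WT and 21.1, 23.9, 20.5 and 17.8 CPM in the 4 CBP KIX/KIX mice. The difference was seen after the MWM, where the groups did not overlap, and was 0.09 (SE 0.0826) in RNA-Seq 2 alone, at 0.18 in replicates 1 and 2 and −0.04 in replicates 3 and 4. Without factors its adjusted p = 0.469. Without CBP KIX/KIX MWM replicate 2 the *Pcp4* value was 0.21 (adjusted p = 0.148). *Rgs14*, a regulator of G-protein signalling, was at −0.13 (SE 0.0438, adjusted p = 0.120) and *Amigo2*, an adhesion molecule, at −0.15 (SE 0.0600, adjusted p = 0.189), so neither passed. After the MWM, *Rgs14* stood at 288, 293 and 254 CPM in the 3 WT and at 226, 229 and 224 CPM in the 3 CBP KIX/KIX libraries. In CFC mice the level was 107, 97.7, 98.7 and 104 CPM in the 4 WT and 93.2, 119, 95.6 and 97.8 CPM in the 4 CBP KIX/KIX mice. *Rgs14* was lower in all 3 CBP KIX/KIX MWM mice than in all WT MWM mice and overlapped after CFC. After the MWM, *Amigo2* stood at 24.8, 29.7 and 22.5 CPM in the 3 WT and at 23.5, 21.4 and 19.2 CPM in the 3 CBP KIX/KIX libraries. After CFC it stood at 21.4, 24.9, 23.6 and 24.4 CPM in the 4 WT and 18.2, 23.9, 26.6 and 22.7 CPM in the 4 CBP KIX/KIX mice. *Amigo2* overlapped between genotypes in both. *Map3k15* was at −0.11 (SE 0.13, adjusted p = 0.739). *Amigo2* overlaps Pced1b, *Map3k15* overlaps Pdha1 and the CA3 marker *Homer3* overlaps Ddx49, each on the opposite strand, and without a known strand setting of the counting their reads cannot be told apart with certainty.

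Of the 5 CA1 markers 4 were negative and 1 positive (median −0.20), and 2 fell. *Mpped1* (chromosome 15, 83779467 to 83858494) had the lowest p of all members, at −0.28 (SE 0.0371, adjusted p = 0.00135), lower in 6 of 7 mice. After the MWM, *Mpped1* stood at 502, 483 and 474 CPM in the 3 WT and at 373, 355 and 421 CPM in the 3 CBP KIX/KIX libraries. Its CFC levels were 244, 222, 228 and 198 CPM in the 4 WT and 232, 151, 195 and 185 CPM in the 4 CBP KIX/KIX mice. The MWM groups did not overlap and the CFC groups did. *Fibcd1* (chromosome 2, 31813290 to 31846005) changed by −0.30 (SE 0.0661, adjusted p = 0.0249), lower in 6 of 7 mice. After the MWM, *Fibcd1* stood at 599, 639 and 563 CPM in the 3 WT and at 439, 502 and 395 CPM in the 3 CBP KIX/KIX libraries. The CFC libraries lay at 147, 134, 151 and 148 CPM in the 4 WT and 127, 103, 147 and 127 CPM in the 4 CBP KIX/KIX mice. Again the groups were apart after the MWM only. Without factors the adjusted p was 0.283 for *Mpped1* and 0.183 for *Fibcd1*. *Pou3f1*, a POU-domain transcription factor, was at −0.14 (SE 0.0463, adjusted p = 0.118). After the MWM, *Pou3f1* stood at 111, 106 and 83.9 CPM in the 3 WT and at 80.3, 73.7 and 97.03 CPM in the 3 CBP KIX/KIX libraries. In CFC mice the level was 51.9, 51.5, 41.6 and 44.9 CPM in the 4 WT and 46.4, 55.5, 42.2 and 39.5 CPM in the 4 CBP KIX/KIX mice. Its groups overlapped in both experiments. *Wfs1* was at −0.20 (SE 0.0735, adjusted p = 0.154) and *Man1a*, a mannosidase of the Golgi, at 0.02 (SE 0.0469, adjusted p = 0.895).

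Of the 12 border markers 9 were negative and 3 positive (median −0.18), and 2 fell. *Meis2*, a homeobox factor (chromosome 2, 115863064 to 116065839), changed by −0.23 (SE 0.0414, adjusted p = 0.0110), lower in 5 of 7 mice. After the MWM, *Meis2* stood at 32.1, 29.8 and 33.6 CPM in the 3 WT and at 23.9, 32.1 and 24.4 CPM in the 3 CBP KIX/KIX libraries. After CFC it stood at 55.004, 50.4, 48.2 and 41.7 CPM in the 4 WT and 53.4, 34.8, 41.3 and 40.3 CPM in the 4 CBP KIX/KIX mice. The groups overlapped in both experiments. *Lgi2*, a secreted leucine-rich repeat protein (chromosome 5, 52533517 to 52566462), changed by −0.22 (SE 0.0480, adjusted p = 0.0267), lower in 6 of 7 mice. After the MWM, *Lgi2* stood at 62.4, 59.6 and 64.5 CPM in the 3 WT and at 50.3, 45.2 and 59.6 CPM in the 3 CBP KIX/KIX libraries. Its CFC levels were 68.9, 68.3, 54.8 and 51.6 CPM in the 4 WT and 75.4, 43.8, 48.9 and 49.4 CPM in the 4 CBP KIX/KIX mice. All 3 CBP KIX/KIX MWM libraries lay below the lowest WT value, replicate 3 by less than the rounding of these values, and the CFC groups overlapped. Without factors the adjusted p was 0.534 for *Meis2* and 0.598 for *Lgi2*. *Cplx3*, which encodes a complexin and marks subplate neurons of the cortex, narrowly missed the threshold at −0.50 (SE 0.13, adjusted p = 0.0506). After the MWM, *Cplx3* stood at 3.28, 2.61 and 3.77 CPM in the 3 WT and at 1.76, 2.20 and 2.61 CPM in the 3 CBP KIX/KIX libraries. The CFC libraries lay at 6.88, 8.02, 4.70 and 3.05 CPM in the 4 WT and 9.495, 1.97, 3.75 and 3.32 CPM in the 4 CBP KIX/KIX mice. CBP KIX/KIX CFC replicate 1 had the highest and replicate 2 the lowest *Cplx3* of the 15 RNA-Seq 2 libraries, so the spread within the group was larger than the difference. Without replicate 1 the *Cplx3* value was −0.78 (adjusted p = 0.0540) and without replicate 2 it was −0.29 (adjusted p = 0.211), the ends of the range over the 14 libraries left out. *Dsc3* at −0.73 (SE 0.20, adjusted p = 0.0634) and *Tshz2* at −0.42 (SE 0.14, adjusted p = 0.122) also had large negative values that did not pass, and *Rxfp3*, the relaxin-3 receptor, was positive at 0.27 (SE 0.0719, adjusted p = 0.0614). *Lefty1*, an inhibitor of Nodal signalling, *Nts*, which encodes neurotensin, *Fn1*, which encodes fibronectin, *Etv1*, an ETS factor, *Tle4*, a corepressor, and *Kitl*, the ligand of the receptor Kit, lay between −0.22 and 0.03.

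**Figure D2:**
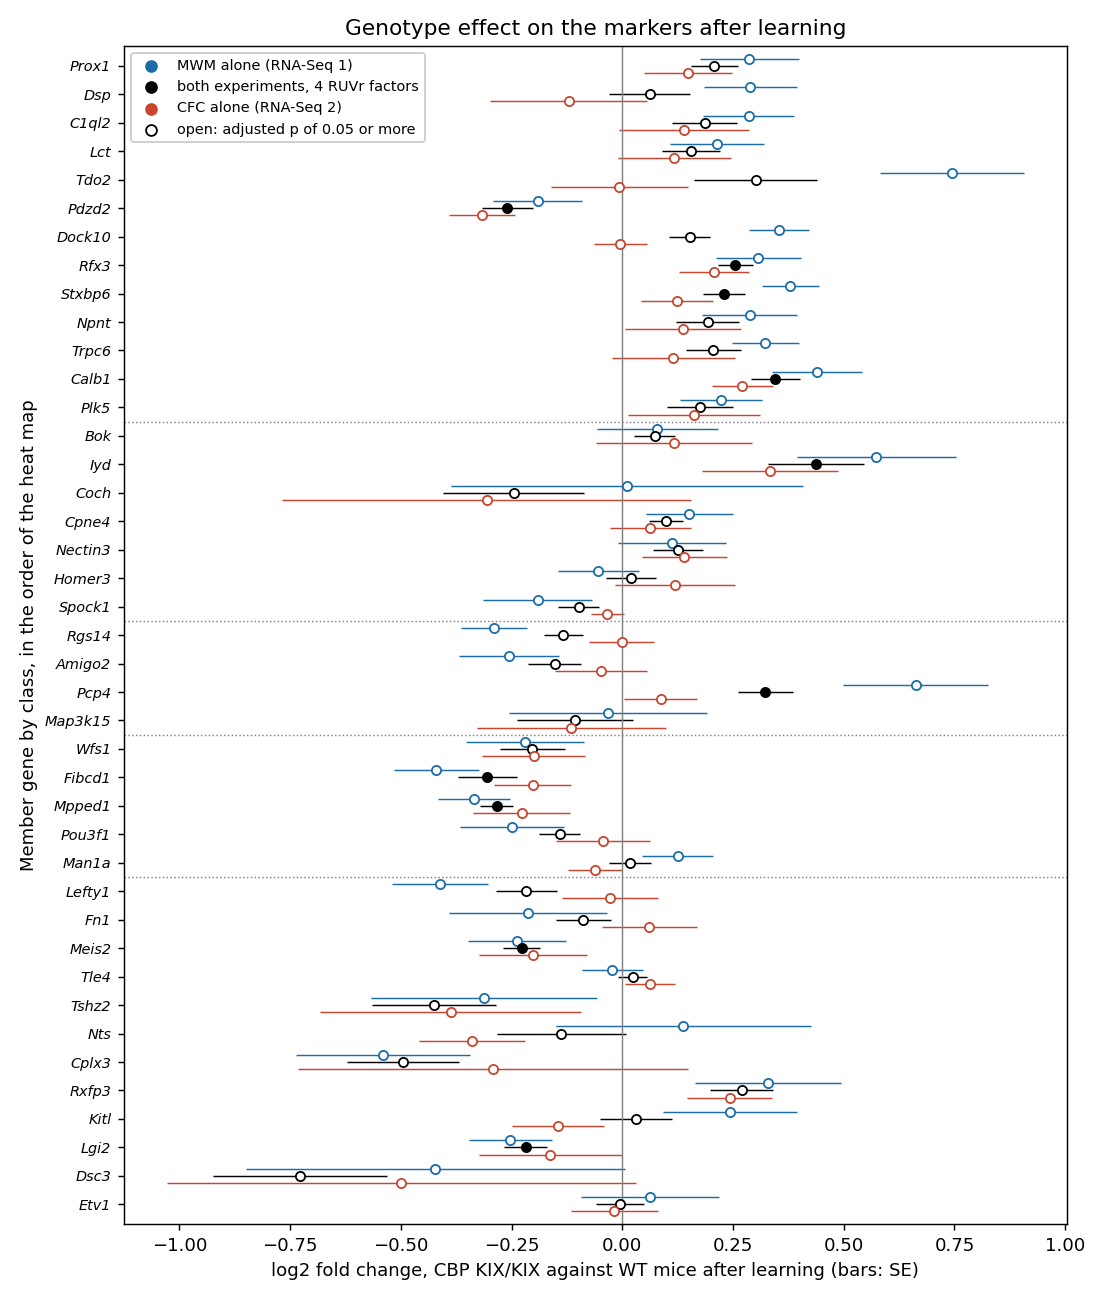
Log2 fold change of CBP KIX/KIX against WT mice after learning with its SE (horizontal axis) for each member (vertical axis, by class), in both experiments together (black) and in MWM (blue) and CFC mice (red) alone. Filled points have an adjusted p under 0.05, which holds for 10 members in the joint fit and for 0 in each experiment alone.

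When the experiments were taken alone, without factors, 0 members passed in either (edgeR). After the MWM 20 members were at an unadjusted p under 0.05, 13 higher and 7 lower, beside 10.5% of all 21319 genes, of which 0.0141% passed, and DESeq2 called 7 members (*Tdo2*, *Dock10*, *Stxbp6*, *Calb1* and *Pcp4* higher, *Fibcd1* and *Mpped1* lower). The CBP KIX/KIX and WT MWM groups did not overlap in 14 members, 8 higher and 6 lower, beside 17.5% of all genes (8.07% higher and 9.43% lower). Of the 8, 6 were dentate gyrus markers. After CFC 6 members were at an unadjusted p under 0.05, beside 3.47% of all 17541 genes, of which 0.0057% passed, and DESeq2 called 0 members. The CFC groups did not overlap in 4 members, *Calb1* and *Rxfp3* higher and *Pdzd2* and *Nts* lower, beside 2.48% of all genes (1.19% higher and 1.29% lower). The median of the 13 dentate gyrus markers was 0.29 after the MWM and 0.12 after CFC, that of the 5 CA1 markers −0.25 and −0.20, and that of the 12 border markers −0.23 and −0.15. Within RNA-Seq 2, replicates 1 and 2 gave *Calb1* 0.23, *Rfx3* 0.27, *Pdzd2* −0.40, *Fibcd1* −0.30 and *Mpped1* −0.32, as differences of mean log2 CPM. Replicates 3 and 4 gave *Calb1* 0.30, *Rfx3* 0.13, *Pdzd2* −0.22, *Fibcd1* −0.13 and *Mpped1* −0.16, in the same direction as in replicates 1 and 2. *Iyd*, at 0.56 and 0.08, was almost level in replicates 3 and 4. The dentate gyrus markers as a class did not keep their direction: 11 of 13 were positive in replicates 1 and 2 (median 0.21) and 5 of 13 in replicates 3 and 4 (median −0.01), with *Prox1* at 0.33 and −0.06 and *Npnt* at 0.34 and −0.14. Of the 7 CA3 markers 5 were positive in replicates 1 and 2 and 2 in replicates 3 and 4. The medians in replicates 1 and 2 and in replicates 3 and 4 were −0.27 and −0.11 for CA1 and −0.18 and −0.11 for the border markers. Without CBP KIX/KIX CFC replicate 2, the library that stood apart, 11 members passed in both experiments together and *Iyd* and *Meis2* no longer passed, at adjusted p of 0.0697 and 0.0993, while *Rgs14*, *Pou3f1* and *Lefty1* did.

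Whether the genotype effect differed between the paradigms was tested as an interaction without factors. By edgeR 0 members passed, as did 0 of all 21489 genes, DESeq2 called 0, and 6 members were at an unadjusted p under 0.05 beside 6.46% of all genes. All 13 dentate gyrus markers had a lower log2 fold change after CFC than after the MWM. For *Pdzd2*, which was negative in both, this is a larger difference after CFC and not a smaller one. The largest gaps were in *Tdo2*, at −0.75 (SE 0.24) with 0.74 (SE 0.16) after the MWM and −0.01 (SE 0.16) after CFC, and in *Pcp4*, at −0.57 (SE 0.19). Both had an adjusted p of 0.755. In RNA-Seq 1 *Tdo2* stood at 2.51, 2.63 and 3.38 CPM in WT and 5.07, 4.08 and 4.98 CPM in CBP KIX/KIX mice, and in RNA-Seq 2 at 7.88, 6.28, 7.84 and 7.93 and 5.997, 9.58, 7.80 and 6.12 CPM.

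In WT mice, the comparison of MWM with homecage libraries turned on dentate gyrus markers, and its calls rested on whether the replicate number was used as a block. With the block, *Plk5*, *C1ql2*, *Lct* and *Prox1* of the dentate gyrus and *Pcp4* were lower after the MWM and *Amigo2* was higher, and without it 0 members passed. Of the 13 dentate gyrus markers 11 were negative (median −0.34, beside −0.06 over all genes), and 8 of the 13 did not overlap between the groups, all lower, beside 9.59% of all 21657 genes that were lower without overlap and 3.92% that were higher. Over all members 9 did not overlap, the ninth being *Pcp4*. By edgeR without a block 0 members passed, beside 0.0139% of all genes (3), 11 were at an unadjusted p under 0.05 beside 9.17%, and DESeq2 called 2, *C1ql2* and *Plk5*. Same-numbered homecage and MWM libraries deviated together over genes, so the fit was repeated with the replicate number as a block. The labels do not say what a number marks, and the block was chosen from these same libraries. Its adjusted p-values do not allow for that choice. In it 6 members passed, 5 lower and 1 higher, beside 2.15% of all genes (1.86% lower and 0.286% higher). Without the block, leaving out WT homecage replicate 3 gave 4 members (*Prox1*, *C1ql2*, *Pdzd2* and *Plk5*, all lower) among 1984 genes called, and leaving out any other library gave 0. With TMM scaling the median of all genes moved from −0.06 to −0.0037, a shift that leaves each of the 9 members without overlap negative.

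*Plk5* (chromosome 10, 80356459 to 80365489) stood at 62.8, 58.4 and 46.4 CPM in WT homecage and 36.3, 32.3 and 38.7 CPM in WT MWM mice. The log2 change was −0.64 (SE 0.13, adjusted p = 0.243) and −0.63 (SE 0.12, adjusted p = 0.000293) with the block. *C1ql2* (chromosome 1, 120340582 to 120343174) stood at 208, 187 and 148 CPM in WT homecage and 122, 113 and 122 CPM in WT MWM mice, at −0.60 (SE 0.13) and −0.58 (SE 0.13, adjusted p = 0.00258) with the block. In both genes every MWM library lay below every homecage library. *Lct* (chromosome 1, 128284756 to 128328318) went from 147, 130.4 and 156 CPM to 115, 85.2 and 109 CPM, at −0.49 (SE 0.13) and −0.49 (SE 0.13, adjusted p = 0.0147) with the block. *Prox1* (chromosome 1, 190118035 to 190170714) went from 96.7, 99.97 and 92.8 CPM to 70.8, 83.04 and 64.5 CPM, at −0.40 (SE 0.12) and −0.41 (SE 0.12, adjusted p = 0.0474) with the block. *Pcp4* went from 12.6, 8.83 and 12.7 CPM to 8.39, 7.41 and 8.46 CPM, at −0.49 (SE 0.16) and −0.48 (SE 0.14, adjusted p = 0.0415) with the block. In *Lct*, *Prox1* and *Pcp4* too the groups did not overlap. *Amigo2* was the member that rose, from 23.5, 14.9 and 18.2 CPM to 24.8, 29.7 and 22.5 CPM, at 0.45 (SE 0.16) and 0.46 (SE 0.13, adjusted p = 0.0271) with the block, and its groups overlapped. *Prox1* has antisense transcripts on the opposite strand, among them Prox1os. *Pdzd2* at −0.39 (SE 0.11), *Npnt* at −0.34 (SE 0.10), *Dsp* at −0.30 (SE 0.11) and *Stxbp6* at −0.30 (SE 0.11) also lay below without overlap and did not pass with the block, with adjusted p of 0.0654 to 0.233.

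**Figure D3:**
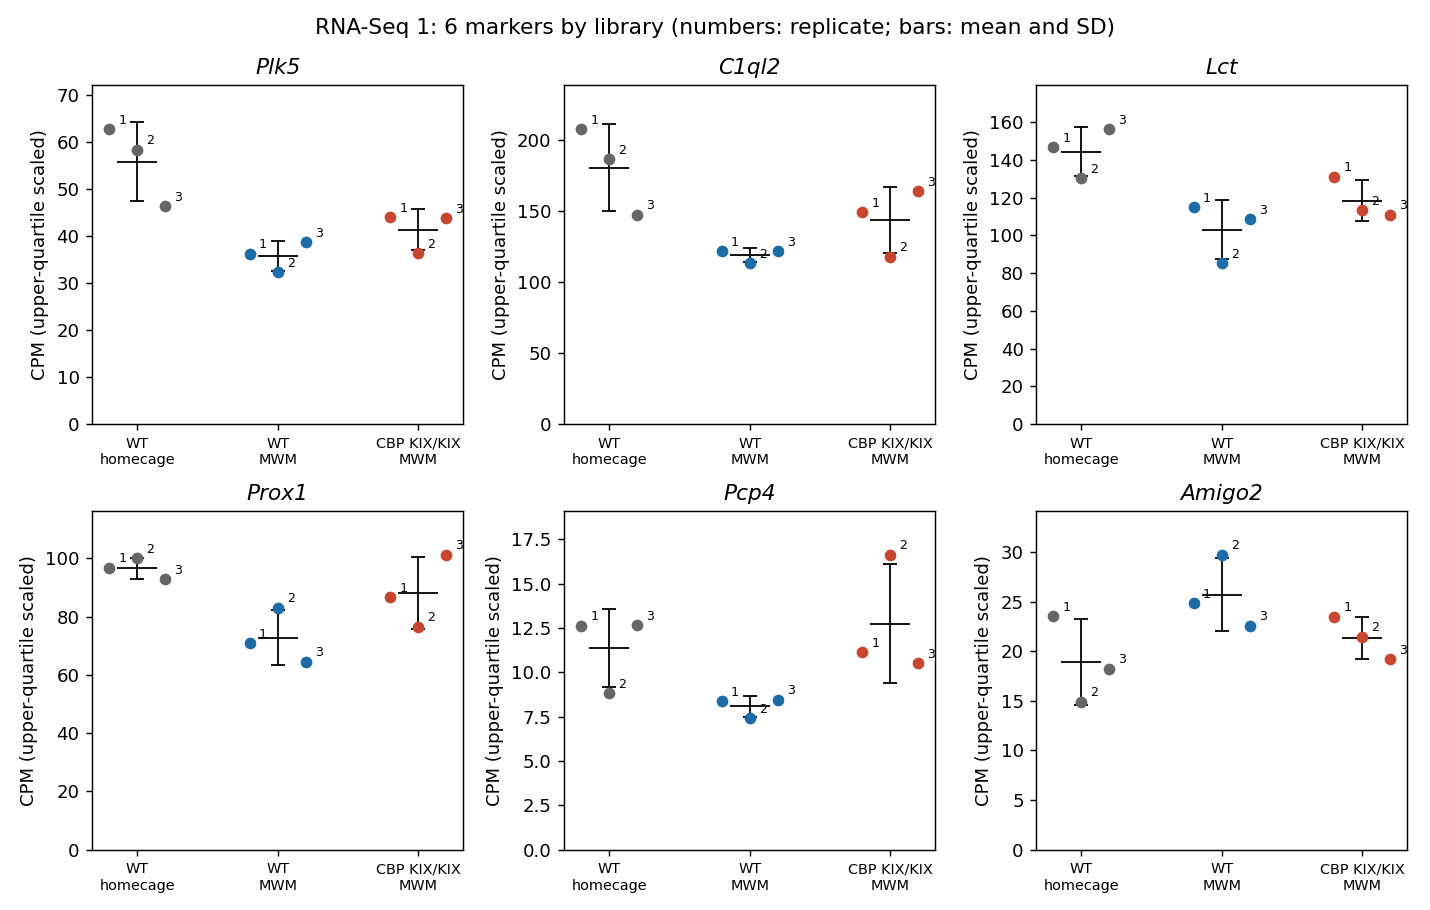
CPM (vertical axis) of the 6 members that passed in WT MWM against WT homecage mice with the replicate block, for each library of RNA-Seq 1 by group (horizontal axis), with the replicate number beside each point and the mean and SD as bars. The 3 WT MWM libraries lie below the 3 homecage libraries in *Plk5*, *C1ql2*, *Lct*, *Prox1* and *Pcp4*.

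The WT MWM libraries enter both this comparison and that of genotype after the MWM, so the levels of the 3 groups are set side by side. In this order (WT homecage, WT after the MWM, CBP KIX/KIX after the MWM), *Prox1* stood at 96.5 ± 3.59, 72.8 ± 9.41 and 88.1 ± 12.4 CPM, *C1ql2* at 181 ± 30.6, 119 ± 4.86 and 144 ± 23.6 CPM and *Stxbp6* at 53.7 ± 5.96, 43.6 ± 0.649 and 56.3 ± 2.02 CPM (SD, n = 3 each). *Plk5* stood at 55.9 ± 8.47, 35.8 ± 3.22 and 41.4 ± 4.32 CPM and *Pcp4* at 11.4 ± 2.21, 8.09 ± 0.584 and 12.8 ± 3.37 CPM. The CBP KIX/KIX MWM means thus lay between the WT means for *Prox1*, *C1ql2* and *Plk5* and above both for *Stxbp6* and *Pcp4*. Of the others that fell without overlap in WT mice, *Lct*, *Dsp* and *Npnt* were above the WT MWM mean in 3 of 3 CBP KIX/KIX MWM mice. *Pdzd2* went the other way and was below that mean in 2 of 3. RNA-Seq 1 has no CBP KIX/KIX homecage mice, so the response of CBP KIX/KIX mice to the MWM cannot be given. In the other classes, CA3 members lay between −0.33 (*Coch*) and 0.05 (*Cpne4*), the 5 CA1 members were all positive between 0.05 (*Fibcd1*) and 0.20 (*Wfs1*), and 8 of the 12 border members were positive, with *Dsc3* at 0.69 (SE 0.45) and *Lefty1* at 0.39 (SE 0.17). None of these passed with or without the block. The summed level of 5 striatal markers was 76.04 to 96.6 CPM, 56.98 to 70.6 CPM and 55.5 to 74.9 CPM in the same order, that of 3 endothelial markers was 136 to 164 CPM, 93.2 to 123 CPM and 88.7 to 108 CPM, and that of 7 choroid plexus markers was 142 to 1794, 197 to 1778 and 216 to 2917 CPM. The striatal and endothelial sums were thus lower in every WT MWM library than in every WT homecage library, whereas the choroid plexus sums overlapped. The part of these tissues in the result was not tested.

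In homecage mice of RNA-Seq 2, 10 of the 12 border markers had a negative log2 difference of CBP KIX/KIX against WT mice (median −0.38), 4 of the 5 CA1 markers were negative (median −0.27) and 6 of the 7 CA3 markers positive (median 0.21), with the 13 dentate gyrus markers at a median of −0.17. The dentate gyrus median, as a difference of mean log2 CPM, was −0.03 in replicates 1 and 2 and −0.44 in replicates 3 and 4, and the border median −0.17 and −0.59. Replicates 3 and 4 hold only replicate 3 on the WT side and include CBP KIX/KIX homecage replicate 4, which stood apart. As this contrast chose some of the members, the values are a description. Of the 41 members 25 were negative and 16 positive in CBP KIX/KIX against WT mice, and the groups did not overlap in 12, 7 lower and 5 higher. Over all 18682 genes tested 6.95% did not overlap (3.79% lower and 3.16% higher) and 0.0107% passed at an adjusted p under 0.05. Of the 7 that were lower, 5 were border markers (*Dsc3*, *Cplx3*, *Kitl*, *Meis2* and *Lgi2*) and 2 CA1 markers (*Wfs1* and *Mpped1*). Of the 5 that were higher, 3 were CA3 markers (*Bok*, *Homer3* and *Nectin3*), 1 a CA2 marker (*Rgs14*) and 1 a border marker (*Rxfp3*).

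The 6 members with the largest homecage differences are given by mouse. *Dsc3* stood at 4.25, 3.45 and 4.54 CPM in the 3 WT and 1.62, 1.62, 2.23 and 1.53 CPM in the 4 CBP KIX/KIX homecage mice, a log2 difference of −1.22 (SE 0.18). *Cplx3* stood at 6.91, 8.86 and 7.50 CPM in the 3 WT and 4.53, 4.13, 3.97 and 3.41 CPM in the 4 CBP KIX/KIX homecage mice, a log2 difference of −0.94 (SE 0.14). *Kitl* stood at 22.2, 26.8 and 23.9 CPM in the 3 WT and 16.5, 14.4, 13.8 and 16.1 CPM in the 4 CBP KIX/KIX homecage mice, a log2 difference of −0.68 (SE 0.0973). In these 3 genes every CBP KIX/KIX library lay below every WT library, and the differences were −1.24, −0.86 and −0.66 in replicates 1 and 2 and −1.29, −1.03 and −0.68 in replicates 3 and 4, where the WT group has 1 library. *Rxfp3* stood at 5.95, 6.57 and 6.22 CPM in the 3 WT and 9.18, 10.4, 10.01 and 11.3 CPM in the 4 CBP KIX/KIX homecage mice, a log2 difference of 0.71 (SE 0.11), with every CBP KIX/KIX library above every WT library. *Bok* stood at 67.4, 47.6 and 65.7 CPM in the 3 WT and 67.5, 91.7, 94.8 and 111 CPM in the 4 CBP KIX/KIX homecage mice, a log2 difference of 0.60 (SE 0.17), also without overlap, the lowest CBP KIX/KIX value being close to the highest WT value. *Tdo2* stood at 7.01, 6.75 and 6.57 CPM in the 3 WT and 8.08, 3.15, 1.91 and 1.25 CPM in the 4 CBP KIX/KIX homecage mice, a log2 difference of −0.85 (SE 0.50). *Tdo2* overlapped: CBP KIX/KIX replicate 1 was above all WT libraries and the other 3 were below them. Without CBP KIX/KIX homecage replicate 4 the log2 differences were −1.17 for *Dsc3*, −0.87 for *Cplx3*, −0.70 for *Kitl*, 0.67 for *Rxfp3*, 0.50 for *Bok* and −0.59 for *Tdo2*. The *Tdo2* value rested most on CBP KIX/KIX homecage replicate 1 and was −1.62 without it. The summed level of 8 cortical markers was 158 to 178 CPM in WT and 114 to 146 CPM in CBP KIX/KIX homecage mice, and that of 6 thalamic markers 102 to 106 and 72.002 to 86.2 CPM. Neither sum overlapped between the genotypes, and no gene of the lists was at 0 in a library. For cortex the separation depended on the list. Another list, of 9 deep cortex and subplate genes that shares some with the 8, overlapped at 259 to 294 and 203 to 311 CPM. The part of these regions in the homecage differences was not tested.

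**Figure D4:**
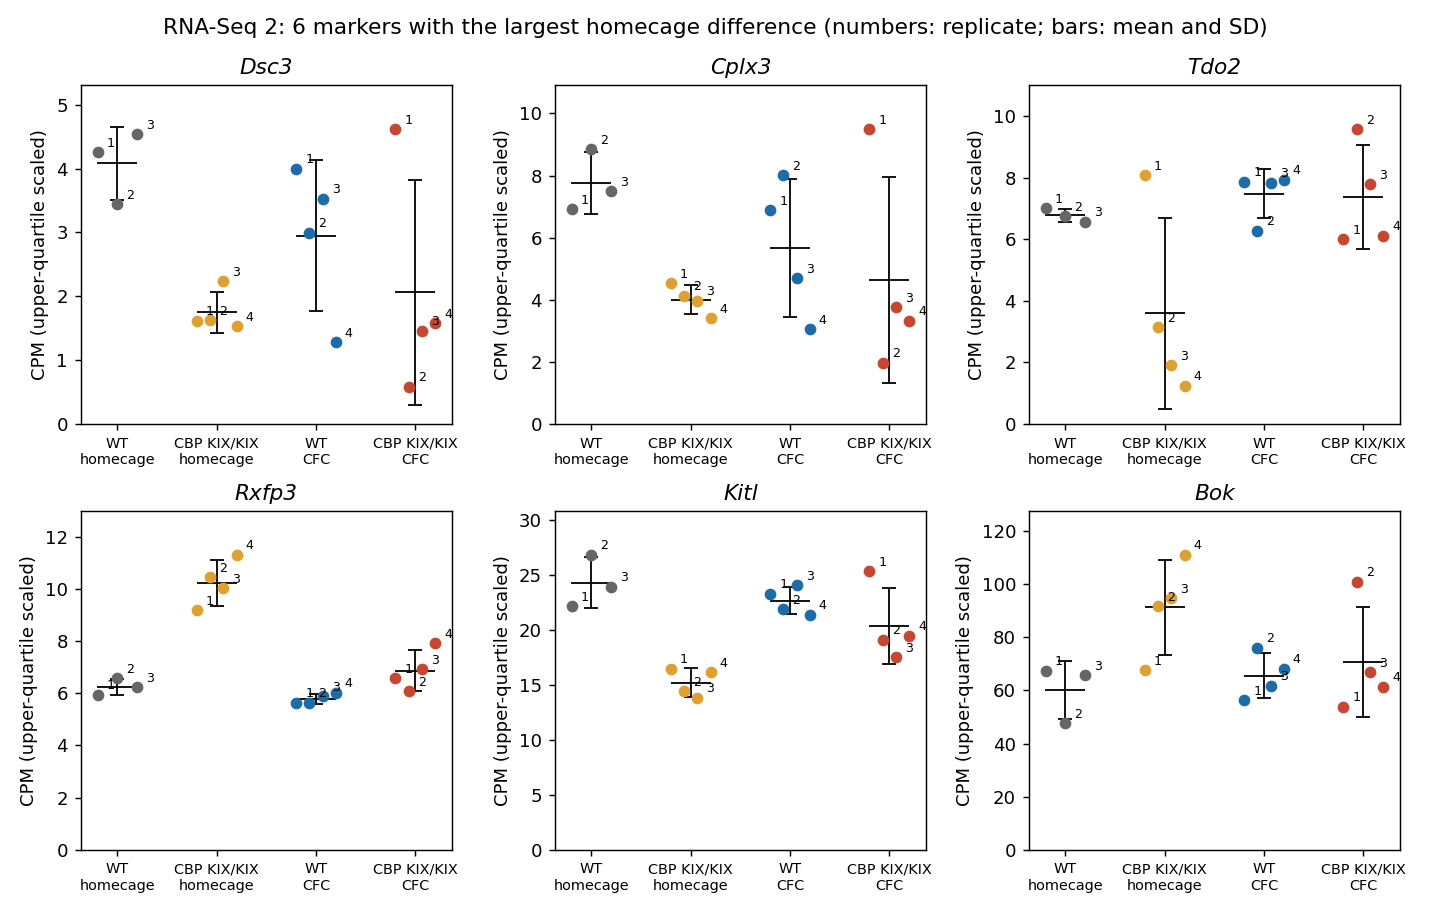
CPM (vertical axis) of the 6 members with the largest homecage difference between genotypes, for each library of RNA-Seq 2 by group (horizontal axis), with the replicate number beside each point and the mean and SD as bars. *Dsc3*, *Cplx3* and *Kitl* are lower and *Rxfp3* and *Bok* higher in all 4 CBP KIX/KIX than in all 3 WT homecage libraries, and the *Tdo2* points of the 4 CBP KIX/KIX homecage libraries are spread from 1.25 to 8.08 CPM.

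Dentate gyrus markers split in opposite directions among the 4 CBP KIX/KIX homecage mice. In replicates 1 to 4, *Tdo2* stood at 8.08, 3.15, 1.91 and 1.25 CPM, *Lct* at 49.2, 38.9, 29.2 and 17.3 CPM and *Plk5* at 38.5, 32.2, 19.98 and 16.1 CPM, with the lowest values in replicate 4. *Pdzd2* stood at 33.6, 40.999, 55.95 and 116 CPM, *Npnt* at 27.8, 18.7, 28.03 and 63.4 CPM and *Prox1* at 82.2, 63.2, 86.7 and 123 CPM, with the highest values in the same replicate. In the 3 WT homecage mice *Lct* lay at 43.7, 42.5 and 48.3 CPM, *Pdzd2* at 43.8, 43.1 and 59.7 CPM and *Npnt* at 24.8, 25.2 and 28.2 CPM, a far smaller spread. *Dsp*, at 36.2, 19.9, 28.5 and 21.3 CPM, was low in replicates 2 to 4, whereas *C1ql2* at 101, 97.02, 115 and 82.05 CPM and *Calb1* at 119, 105, 107 and 95.3 CPM stayed within a narrower range. The split was not limited to the dentate gyrus, as *Fibcd1* stood at 162, 131, 95.7 and 56.9 CPM, *Lefty1* at 8.57, 7.34, 5.88 and 3.75 CPM and *Nectin3* at 29.5, 34.2, 34.8 and 49.6 CPM, with replicate 4 lowest in *Fibcd1* and *Lefty1* and highest in *Nectin3*. The same libraries stood apart in genes outside the list. *Gfap*, the intermediate filament of astrocytes, stood at 304, 554, 800.3 and 1442 CPM in the 4 CBP KIX/KIX homecage mice and between 225 and 335 CPM in the other 11 libraries of RNA-Seq 2. *Prss23*, fixed as a CA3 gene, stood at 7.35, 13.5, 33.1 and 38.2 CPM beside 6.99, 7.88 and 8.32 CPM in WT homecage mice, and *Grp*, fixed as a ventral hippocampal gene, at 16.8, 32.999, 45.3 and 52.1 CPM beside 21.1, 17.4 and 18.5 CPM. The summed level of the 4 ventral hippocampal genes, *Grp* among them, overlapped, at 94.2 to 148 CPM in WT and 79.4 to 167 CPM in CBP KIX/KIX homecage mice. Of the 4 astrocyte markers, *Gja1* did not follow *Gfap*, at 199.995, 183, 185 and 181 CPM. The summed level of the 4 astrocyte markers was 632 to 687 CPM in WT and 646 to 1904 CPM in CBP KIX/KIX homecage mice, and their part in the levels of the members was not tested.

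**Figure D5:**
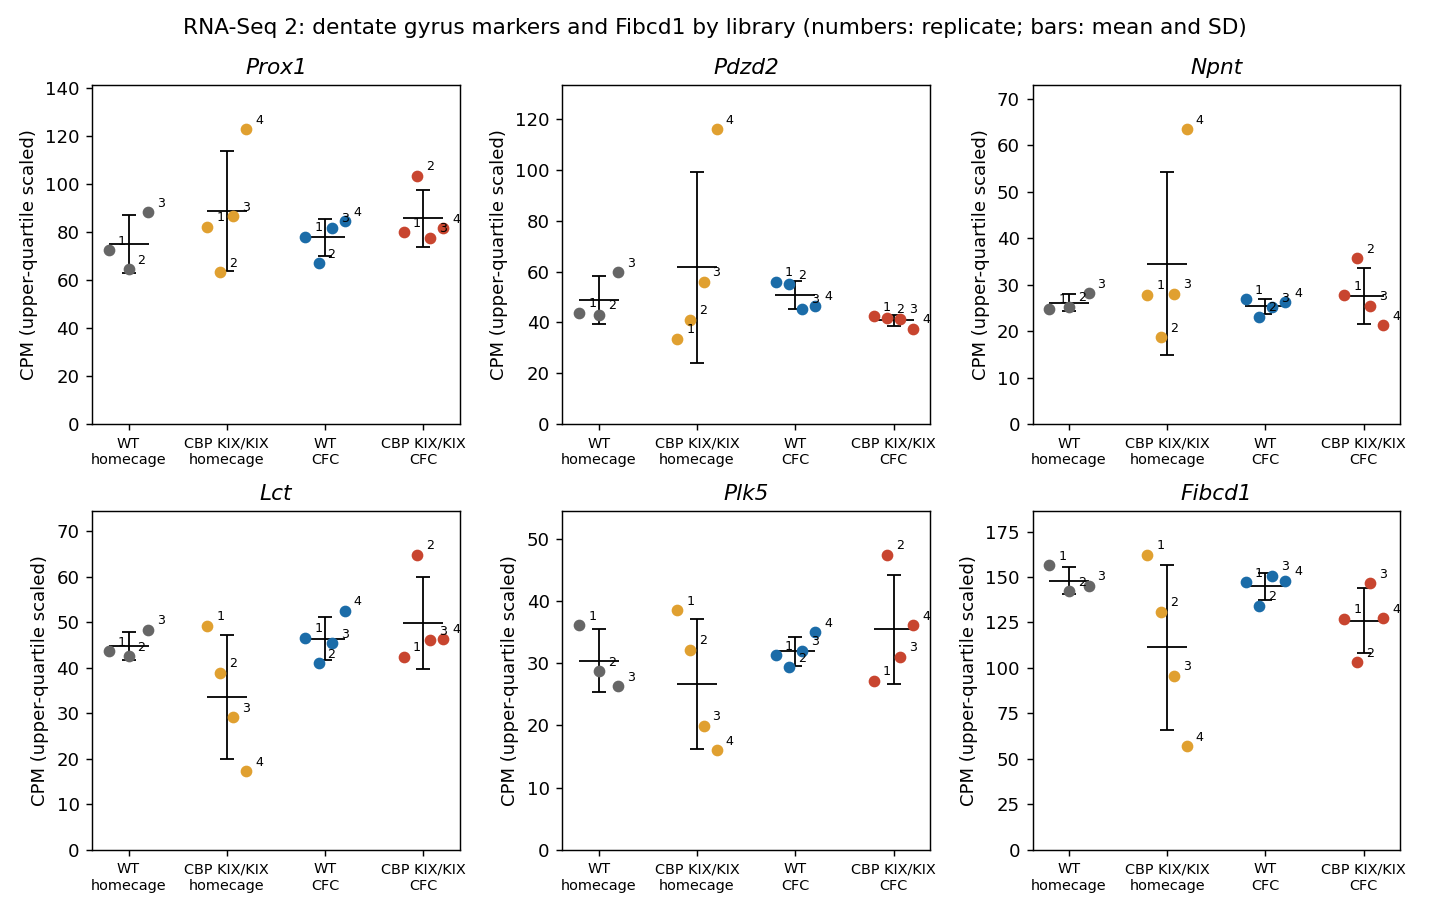
CPM (vertical axis) of 5 dentate gyrus markers and the CA1 marker *Fibcd1* for each library of RNA-Seq 2 by group (horizontal axis), with the replicate number beside each point and the mean and SD as bars. CBP KIX/KIX homecage replicate 4 is highest in *Prox1*, *Pdzd2* and *Npnt* and lowest in *Lct*, *Plk5* and *Fibcd1*.

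CFC against homecage was described in each genotype, as it shares the homecage libraries. A member chosen for its homecage difference would tend to move back here, so the directions are not separate results. *Rxfp3* and *Kitl* were among the members with the largest homecage differences. In WT mice 21 members were positive and 20 negative, the groups did not overlap in 2 (*Man1a* higher and *Fn1* lower), beside 5.32% of all 18115 genes (2.68% higher and 2.64% lower), and 0.116% of genes passed. All 12 border markers were negative, between −0.44 (*Dsc3*) and −0.02 (*Lefty1*). WT CFC replicate 4 had the lowest *Cplx3* and *Dsc3* of that group at 3.05 and 1.28 CPM, and without it *Dsc3* was at −0.21 and *Cplx3* at −0.24. The dentate gyrus markers lay between −0.06 (*Calb1*) and 0.13 (*Tdo2*). In CBP KIX/KIX mice 24 members were positive and 17 negative, and the groups did not overlap in 3 (*Calb1* and *Kitl* higher and *Rxfp3* lower), beside 5.03% of all 17717 genes (2.56% higher and 2.47% lower), with 0.0113% passing. *Rxfp3* was at −0.58 (SE 0.11) in CBP KIX/KIX and −0.11 (SE 0.0924) in WT mice, *Kitl* at 0.42 (SE 0.12) and −0.11 (SE 0.0767), and *Calb1* at 0.30 (SE 0.0830) and −0.06 (SE 0.0580). The dentate gyrus markers in CBP KIX/KIX mice ranged from −0.57 (*Pdzd2*) to 0.97 (*Tdo2*), and *Tdo2* was at 1.74 without CBP KIX/KIX homecage replicate 1. Same-numbered CFC and homecage libraries deviated together over genes, with correlations of 0.30, 0.38 and 0.19 in WT and 0.23, 0.20, 0.25 and 0.15 in CBP KIX/KIX mice, and a fit with the replicate number as a block was added after the data were seen. With it 0.0883% of genes passed in WT and 0.0113% in CBP KIX/KIX mice. The blocked values in CBP KIX/KIX mice were −0.58 (SE 0.0951) for *Rxfp3*, 0.42 (SE 0.0779) for *Kitl*, 0.30 (SE 0.0945) for *Calb1* and 1.20 (SE 0.43) for *Tdo2*. In WT mice 11 of the 12 border markers were negative with the block, and *Dsc3* was at −0.21 (SE 0.13).

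Other genes of the same regions, taken from a second list, were set beside the members after learning. This list too was chosen with earlier results of these data known, so its calls are not an independent check. Of 6 further dentate gyrus genes 5 were positive and 1 negative (median 0.12), and 1 rose, *Lrrtm4*, a synaptic adhesion protein, at 0.33 (SE 0.0666, adjusted p = 0.0170). Of 5 further CA3 genes 0 passed and all were negative (median −0.08), whereas the 7 CA3 members had a median of 0.07. Of 4 further CA2 genes 0 passed, with 2 positive and 2 negative. Of 4 further CA1 genes all were negative (median −0.17) and 1 fell, *Gpr161*, a receptor of the primary cilium, at −0.24 (SE 0.0407, adjusted p = 0.00658). Of 9 genes fixed as deep cortex and subplate 7 were negative (median −0.09) and 1 fell, *Nr4a2*, at −0.45 (SE 0.0558, adjusted p = 0.000940). It encodes an orphan nuclear receptor and is also induced by neuronal activity. Of 5 genes of immature granule neurons 0 passed and 4 were positive. Of 4 ventral hippocampal genes 1 rose, *Trhr*, the receptor of thyrotropin-releasing hormone, at 0.48 (SE 0.0985, adjusted p = 0.0192), and 3 were negative. Cortical markers, some of them also among the 9 genes fixed as deep cortex and subplate, could enter with the border of a dissected piece. They summed to 156 to 168 CPM in WT and 116 to 161 CPM in CBP KIX/KIX MWM mice (8 genes, none at 0 in any library). After CFC they summed to 136 to 165 and 128 to 184 CPM. The 9 genes fixed as deep cortex and subplate summed to 262 to 268 CPM in WT and 191 to 250 CPM in CBP KIX/KIX MWM mice. These sums did not overlap, whereas after CFC those of the 9 genes did, at 257 to 304 and 250 to 307 CPM. Thalamic markers, of another neighbouring region, summed to 101 to 113 and 107 to 124 CPM after the MWM and to 93.5 to 106 and 89.96 to 107 CPM after CFC (6 genes). Of the cell type lists, astrocytes had 1 gene higher (*Gja1*, 0.16) and 2 lower (*Gfap*, −0.29, and *Aldh1l1*, −0.26) past the threshold. Interneurons had 1 lower (*Sst*, −0.19) and the cortical list 1 lower (*Cux2*, −0.26). In the lists of choroid plexus, thalamus, striatum, oligodendrocytes, microglia, endothelium and ependyma 0 genes passed. The part of these cell types in the genotype differences of the members was not tested.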

How the data were processed

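RNA was measured by RNA-Seq in 24 dorsal hippocampus samples. The authors aligned the reads with STAR to GRCm38 (mm10) and deposited raw counts per gene from featureCounts (1.4.4 in the processing notes). The strand setting of the counting is not given in the sources used here. No column was left unused, and gene names and positions came from GENCODE M21 (51633 of 51826 identifiers matched). Counts were tested with edgeR 4.0.16 in R 4.3.3 (quasi-likelihood test, filterByExpr, upper-quartile scaling, Benjamini-Hochberg adjusted p under 0.05 over all genes). The comparison over both experiments had the experiment as a batch and 4 RUVr factors, as in the study's methods. The study also normalized for GC content before this step, which the main fit here did not. Comparisons within an experiment had no covariate. Alternatives were TMM, no filter, DESeq2 1.42.0, offsets over 10 bins of GC content, fewer factors, a replicate block and leaving out each replicate. Scripts were tested on simulated data.

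Members and lists were chosen with earlier results of these data known. Values by library are given for members past the threshold in a tested comparison, for the 3 members of each class with the lowest p after learning and for the 6 largest homecage differences. The members shown for the spread among CBP KIX/KIX homecage mice were picked after their values were seen. The replicate number was used as a block beside the MWM comparison in WT mice, since deviations of same-numbered homecage and MWM libraries correlated at 0.14, 0.10 and 0.18, a hint from the data and not from the labels, which do not say what a number marks. Replicates are separate samples by the labels, and p-values measure the spread between them. With RUVr factors they measure only the spread that the factors, taken from the same libraries, left. Intervals of depth cover counting error only, and the depth of RNA-Seq 2 replicates 3 and 4 limits the precision for genes of few counts.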

Additional observations from a re-analysis of the deposited data

Results flagged for a closer look

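In 4 of 123 groups of 4 libraries, 1 library lay so far from the other 3 that its gap to the nearest of them, as a share of the range of the group, exceeded Dixon's critical value, which chance passes in about 1 in 20 groups. *Prox1* stood at 104 CPM in CBP KIX/KIX CFC replicate 2 and at 77.6 to 81.7 CPM in the other 3 mice of the group. *Tdo2* stood at 6.28 CPM in WT CFC replicate 2, below the 7.84 to 7.93 CPM of the others. *Mpped1* stood at 162 CPM in CBP KIX/KIX homecage replicate 4, below 209.6 to 217 CPM in the other 3. *Dsc3* stood at 2.23 CPM in CBP KIX/KIX homecage replicate 3, above 1.53 to 1.62 CPM in the others and below each of the 3 WT homecage mice.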

How the results depend on the processing

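The counts of genes that passed depended on the settings. In the tested comparisons no value changed sign among the members followed across settings, which were those called or with low p. Over all 41 members fewer kept their sign when 1 library was left out. The lowest numbers were 38 for genotype after learning, 37 after the MWM, 32 after CFC and 30 for the MWM in WT mice, where TMM kept 36. For genotype after learning (10 members, 520 genes), the counts were 5 members and 253 genes without the filter on low counts, 6 and 173 with GC offsets, 0 and 4 without factors, 1 and 131 with 2 factors, and 0 and 8 with a replicate block and no factors, while DESeq2 called 886 genes. Leaving out 1 library gave 4 to 17 members and 201 to 881 genes. After the MWM (0 members, 3 genes), both the fit without the filter and DESeq2 called 7 members, among 90 and 43 genes, the replicate block left 0 genes, and leaving out 1 library gave 0 to 5 genes. After CFC (0 members, 1 gene), the counts were 5 genes without the filter, 18 with DESeq2 and 2 with the replicate block. For the MWM in WT mice (0 members, 3 genes), the fit without the filter gave 2 members and 170 genes, DESeq2 2 and 49, GC offsets 5 genes, the replicate block 6 members and 465 genes, and leaving out 1 library 0 to 4 members and 0 to 1984 genes. The replicate block changed no other call of a member, and in the tested comparisons other than the MWM in WT mice same-numbered libraries did not all deviate together. They did in CFC against homecage in both genotypes, where a block added after seeing the data left 21 (20 without) members negative in WT and 19 (17 without) in CBP KIX/KIX mice. The cause of these shifts was not tested, beyond the larger number of genes that enter without the filter. The number of members negative in homecage mice lay between 23 and 27 when 1 library was left out (25 with all). That count hides changes of sign in both directions. Only 32 of the 41 members kept their sign without CBP KIX/KIX homecage replicate 4, and 34 with a replicate block, in which 0 genes passed. Low counts limit members of few CPM, among them *Dsc3*, *Map3k15*, *Tdo2*, *Tshz2*, *Nts*, *Iyd* and *Cplx3*, and the task, library type and run cannot be told apart between the experiments.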
